A study of Solanum lycopersicum with 6 samples.

Results

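The MADS-box genes of tomato fruit ripening were followed here: RIN, FUL1, FUL2, TAGL1 and TAG1, chosen by name through their 5 Solyc locus identifiers. Of these, RIN (Solyc05g012020.3), FUL1 (Solyc06g069430.3) and TAGL1 (Solyc07g055920.3) have a row in the deposited table, which lists 8703 genes. FUL2 (Solyc03g114830) and TAG1 (Solyc02g071730) have no row and were not analysed here. RNA came from the equatorial pericarp, the fleshy fruit wall, of tomato (Solanum lycopersicum) in the Ailsa Craig background. The jmj7 group consisted of transgenic fruit named after JMJ7, a histone demethylase gene, and the WT group of wild-type fruit; each gave 3 libraries at 38 days after anthesis. The labels do not state how the gene was altered, how many lines were pooled, or whether the replicates were separate plants. P-values therefore refer to these libraries only, and the spread between them may be technical. The columns taken as jmj7 carry a prefix that stands in no label and were assigned because WT is the other of the 2 groups, so every direction below rests on that assignment. No identifier could be paired with JMJ7 through the reference gene table, so the targeted gene gave no check of the labels.

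MADS-box proteins bind DNA as dimers and larger complexes, and tomato fruit uses members of several floral clades. RIN belongs to the SEPALLATA clade and is required for normal ripening. FUL1 and FUL2 belong to the FRUITFULL clade and act in ripening as partners of RIN. TAGL1 and TAG1 belong to the AGAMOUS clade, in which TAGL1 takes part in fleshy fruit expansion and ripening and TAG1 in stamen and carpel identity.

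The table holds only genes that the authors had called different, with an absolute log2 fold change above 1. A gene below that size has no row, and a member with a row had to differ. Of 7622 genes that passed a low-count filter, 100.0% were called again by edgeR's quasi-likelihood test at an adjusted p under 0.05. The higher calls made up 37.2% and the lower calls 62.8%. The 3 members with a row all passed the filter and were all called higher in jmj7, and nothing is read from that count. The edgeR test shares its estimate of spread across genes, so its small p-values do not rest on a gene's own libraries alone. An exact permutation test on the log2 normalized counts of each member alone gave p = 0.1 for RIN, FUL1 and TAGL1. Reads in the table's genes ranged from 10937853 to 15254146 in jmj7 libraries and from 7508105 to 9155968 in WT libraries, which is part of each library's depth. In bulk pericarp, fewer cells of a type and less RNA per cell cannot be told apart.

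RIN was among the more abundant transcripts of the table in jmj7 and near the bottom of it in WT. The RIN level was 574.6, 580.4 and 604 FPKM in jmj7 replicates 1 to 3, against 0.468, 0.437 and 0.691 FPKM in WT replicates 1 to 3. FPKM is a level per gene length and per library total. The groups were far apart, with the lowest jmj7 library at 832 times the highest WT library on this scale. By FPKM, RIN stood between rank 85 and rank 92 of 8703 genes in jmj7 libraries, and between rank 6991 and rank 7379 in WT libraries.

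The WT level of RIN rested on few reads. RIN had 26799, 19336 and 20912 reads in jmj7 replicates 1 to 3, against 16, 14 and 27 reads in WT replicates 1 to 3. The exact 95% Poisson intervals of the WT counts were 9.15 to 26.0, 7.65 to 23.5 and 17.8 to 39.3 reads, and they overlap one another; such intervals cover counting error only. In normalized counts, which are reads divided by the authors' size factor for each library, the coefficient of variation of RIN was 2.67% in jmj7 and 26.3% in WT. Counting alone would give about 0.675% in jmj7 and 23.0% in WT, so the spread among WT libraries was close to counting error and that among jmj7 libraries exceeded it. RIN averaged 25689 ± 687 normalized counts in jmj7 and 15.8 ± 4.16 in WT (SD, n = 3 each). The fitted log2 fold change was 10.63 ± 0.191 (SE, edgeR quasi-likelihood adjusted p = 2.56e-47). RIN was higher in 9 of 9 pairings of a jmj7 with a WT library, by 1219-fold to 2019-fold. The groups did not overlap in 99.7% of tested genes, so nothing is read from that count of pairings. RIN held rank 25 by log2 fold change among the 2837 genes called higher. In the reference gene table RIN lies beside MADS-MC, another MADS-box gene, and a further entry spans both; the rule by which reads of that region were counted is not known here.

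FUL1 was already present at a moderate level in WT and was higher in jmj7. The FUL1 level was 359, 386 and 383 FPKM in jmj7 replicates 1 to 3, against 23.1, 22.1 and 19.4 FPKM in WT replicates 1 to 3. The groups did not overlap, and WT replicate 3 was the lowest of all. Over the table, 99.7% of tested genes had groups that do not overlap in normalized counts. FUL1 stood between rank 153 and rank 170 by FPKM in jmj7 libraries, and between rank 1901 and rank 2131 in WT libraries. Read counts were 16034, 12319 and 12684 in jmj7 replicates 1 to 3, against 757, 678 and 727 in WT replicates 1 to 3. Normalized counts of FUL1 averaged 15772 ± 635 in jmj7 and 614 ± 51.5 in WT (SD, n = 3 each). The fitted log2 fold change was 4.69 ± 0.0495 (SE; edgeR quasi-likelihood adjusted p = 1.31e-41), with fold differences from 23.1 to 29.2 over the 9 library pairings. FUL1 varied by 4.03% in jmj7 and 8.38% in WT, above the counting errors of 0.862% in jmj7 and 3.73% in WT. Its fold change held rank 275 among the genes called higher.

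TAGL1 differed least of the 3. The TAGL1 level was 199, 199 and 202 FPKM in jmj7 replicates 1 to 3, against 141, 133 and 133 FPKM in WT replicates 1 to 3. The groups did not overlap, as for nearly all genes tested, but the gap was small beside that of RIN or FUL1. TAGL1 stood between rank 275 and rank 277 by FPKM in jmj7 libraries, and between rank 367 and rank 383 in WT libraries, so it was well expressed in both. Read counts were 6353, 4542 and 4799 in jmj7 replicates 1 to 3, against 3309, 2913 and 3552 in WT replicates 1 to 3. Normalized counts averaged 6005 ± 59.4 in jmj7 and 2763 ± 74.6 in WT (SD, n = 3 each). The coefficient of variation of 0.990% in jmj7 lay below the counting error of 1.39%, and that of 2.70% in WT lay above 1.76%.

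The log2 fold change of TAGL1 was 1.12 ± 0.0376 (SE; edgeR quasi-likelihood adjusted p = 1.31e-25), a 2.17-fold difference that held rank 2473 of 2837 higher genes. In the authors' deposited table its log2 fold change is 1.12, just inside their limit. The size of this difference depended on how libraries were scaled. With the library depth implied by the FPKM values, TAGL1 was 1.48-fold higher in jmj7 (log2 fold change 0.56), and with size factors recomputed over the table it was 5.09-fold higher (2.35). The value with recomputed factors is from DESeq2 on all 8703 genes. Such factors assume mostly unchanged genes, whereas this table holds only genes already called different. Over the genes tested, the log2 fold change shifted by -0.56 at the median with the depth implied by FPKM and by 1.23 with recomputed factors, and the shifts of TAGL1 were of that size. For RIN and FUL1 the same scalings gave log2 fold changes of 10.07 and 4.13 with the depth implied by FPKM, and 11.87 and 5.91 with recomputed factors.

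**Figure D1:**
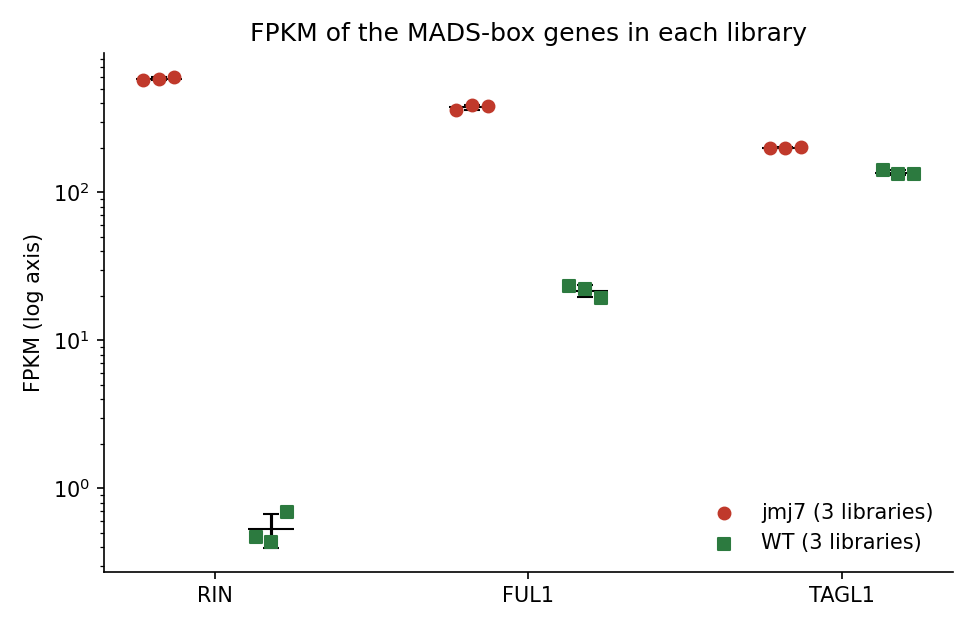
FPKM of RIN, FUL1 and TAGL1 on a log axis, with 3 jmj7 libraries (circles) left of 3 WT libraries (squares); horizontal bars are means and error bars are SD. RIN averages 586 FPKM in jmj7 and 0.532 in WT, whereas the 2 groups of TAGL1 lie close together at 199.9 and 135.4.

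The 3 genes changed places between the groups. In each of the 3 jmj7 libraries the order by FPKM was RIN, FUL1, TAGL1, and in each of the 3 WT libraries it was TAGL1, FUL1, RIN. Mean levels in jmj7 were 586 ± 15.8 FPKM for RIN, 376 ± 14.8 for FUL1 and 199.9 ± 2.04 for TAGL1. Mean levels in WT were 0.532 ± 0.138 FPKM for RIN, 21.6 ± 1.91 for FUL1 and 135.4 ± 4.97 for TAGL1 (SD, n = 3 each). Neighbours in each order were separated by more than the spread between replicates. RIN supplied 50.4% ± 0.564 of the summed FPKM of the 3 genes in jmj7 and 0.339% ± 0.0980 in WT. FUL1 supplied 32.3% ± 0.727 in jmj7 and 13.7% ± 0.824 in WT, and TAGL1 17.2% ± 0.297 in jmj7 and 86.0% ± 0.727 in WT. The sum itself was 1163 ± 28.7 FPKM in jmj7 and 158 ± 6.41 in WT.

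**Figure D2:**
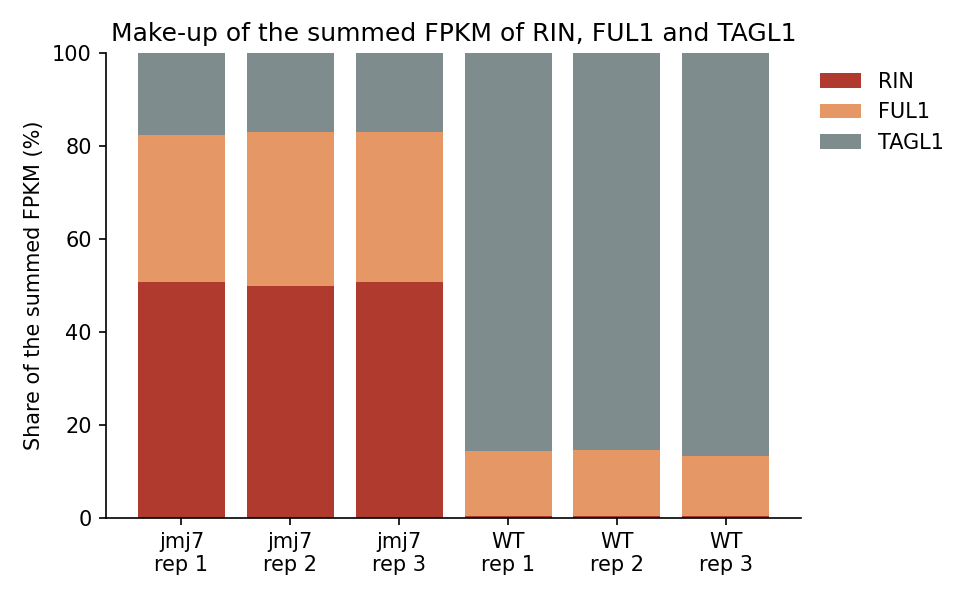
Share of the summed FPKM of the 3 genes, in percent, for each jmj7 library (left) and each WT library (right). RIN takes about 50% of the sum in each jmj7 library, and TAGL1 takes 85.5% to 86.8% of it in each WT library.

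Ratios of reads within a library do not depend on the scaling between libraries, so they show whether the genes differed by unlike factors. The log2 ratio of RIN to FUL1 reads was 0.74, 0.65 and 0.72 in jmj7 replicates 1 to 3, against -5.56, -5.60 and -4.75 in WT replicates 1 to 3. WT replicate 3, which had the most RIN reads of the WT libraries, had the highest WT ratio, yet far from the jmj7 range. As given above, the spread of RIN among WT libraries was close to counting error. The difference in this log2 ratio, jmj7 minus WT, was 6.01 ± 0.278 (SE, n = 3 each; exact two-sided permutation p = 0.1), which is a 64.4-fold change in the ratio. Without WT replicate 3 it was 6.29. A p of 0.1 is the smallest that 3 against 3 libraries allow, so this design cannot reach 0.05.

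The other pairs differed in the same way. The log2 ratio of RIN to TAGL1 reads averaged 2.10 ± 0.0242 in jmj7 and -7.48 ± 0.379 in WT (SD, n = 3 each), a difference of 9.57. For FUL1 to TAGL1 the log2 ratio averaged 1.39 ± 0.0526 in jmj7 and -2.17 ± 0.101 in WT (SD, n = 3 each), a difference of 3.57. The groups did not overlap in any of the 3 pairs, and the exact permutation p was 0.1 for each, also after Benjamini-Hochberg adjustment over 3 pairs. The share of other gene pairs without overlap was not computed, so nothing is read from that count. Per gene length, RIN stood at 1.56 ± 0.0511 times the level of FUL1 in jmj7 and at 0.0252 ± 0.00898 times in WT (SD, n = 3 each).

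The MADS-box family was looked at next. A list of 23 MADS-box identifiers, the 5 above included, had 11 with a row in the table, and all 11 were tested. Of these, 6 were higher and 5 lower in jmj7, against 37.2% higher and 62.8% lower over all genes tested. Their median log2 fold change was 1.12, against -1.43 over all genes. Without RIN, FUL1 and TAGL1 the list had 3 higher and 5 lower genes and a median of -1.84, a split close to that of all genes tested, so it shows nothing particular to the family. The identifiers without a row include TM29, TM5 and CMB1, of the SEPALLATA clade, AGL11 and MBP3, of the AGAMOUS group, and TPI, MBP10 and JOINTLESS.

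The lower MADS-box genes included MADS1 and TM6. MADS1 (Solyc03g114840.3), a SEPALLATA-clade gene, had 17.6, 15.4 and 16.6 FPKM in jmj7 replicates 1 to 3, against 69.3, 61.9 and 65.1 FPKM in WT replicates 1 to 3. The groups of MADS1 did not overlap, as for nearly all genes tested. The fit gave a log2 fold change of -1.42 ± 0.0586 (SE, adjusted p by edgeR = 4.30e-23). This was -0.19 with recomputed size factors and -1.98 with the depth implied by FPKM. TM6 (Solyc02g084630.3), a B-class floral gene related to those of petal and stamen identity, had 11.8, 10.2 and 12.2 FPKM in jmj7 replicates 1 to 3, against 79.7, 79.6 and 84.0 FPKM in WT replicates 1 to 3. The fitted log2 fold change of TM6 was -2.27 ± 0.0653 (SE, adjusted p by edgeR = 1.68e-28). This was -1.04 with recomputed size factors and -2.82 with the depth implied by FPKM. Per gene length, TM6 and MADS1 thus stood far below FUL1 in jmj7 and above it in WT.

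The other lower genes were scarce. DEF (Solyc04g081000.3), a B-class gene also called AP3, averaged 0.172 ± 0.126 FPKM in jmj7 and 2.50 ± 0.329 in WT (SD, n = 3 each), with a log2 fold change of -3.35 ± 0.461 (SE). MBP20 (Solyc02g089210.3), a FRUITFULL-like gene, averaged 0.395 ± 0.200 FPKM in jmj7 and 2.96 ± 0.549 in WT (SD, n = 3 each). The log2 fold change of MBP20 was -2.25 ± 0.450 (SE, adjusted p by edgeR = 2.18e-06), or -2.8 with the depth implied by FPKM. MBP20 lost its call with recomputed size factors, where DESeq2 gave an adjusted p of 0.0636. Solyc12g038510.2, which the reference gene table does not pair with a symbol, had 0 reads over the jmj7 libraries and 401 over the WT libraries. Taking 3 reads over the group as the floor, and the authors' size factors, it was at least 98.8-fold lower in jmj7. FYFL (Solyc03g006830.3), a gene related to the floral senescence regulator FOREVER YOUNG FLOWER of Arabidopsis, was higher. FYFL had 13.3, 13.1 and 14.4 FPKM in jmj7 replicates 1 to 3, against 9.27, 6.68 and 9.64 FPKM in WT replicates 1 to 3, a log2 fold change of 1.22 ± 0.106 (SE; adjusted p by edgeR = 2.60e-13). The remaining 2 higher genes, whose identifiers have no symbol in the reference, were 2.75-fold and 2.78-fold higher. All 3 had log2 fold changes under 1 with the depth implied by FPKM, as TAGL1 did.

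Genes described in earlier work as bound or activated by RIN in ripening fruit were higher in jmj7 where they could be tested. Of 19 such identifiers, 16 have a row and were tested, and 16 were higher and 0 lower, against 37.2% higher over all genes tested. Their median log2 fold change was 6.37, against -1.43 over all genes. The list was chosen with earlier results of these data known, and a listed gene with a row had to differ. No test of the list was run, and whether RIN acts on these genes here was not tested. ADH2, E4 and ACO1 have no row and were not analysed here, and the identifier listed for E8 was left out because the reference places that symbol on another chromosome. Among the cell wall genes, EXP1 (Solyc06g051800.3), an expansin gene, had 74.2, 79.1 and 77.7 FPKM in jmj7 replicates 1 to 3, against 0.733, 0.352 and 0.770 FPKM in WT replicates 1 to 3. CEL2 (Solyc09g010210.3), an endoglucanase gene, had 106, 105 and 105 FPKM in jmj7 replicates 1 to 3, against 0.958, 0.584 and 0.383 FPKM in WT replicates 1 to 3. Both were under 1 FPKM in every WT library, as RIN was, and their log2 fold changes were 7.48 ± 0.203 for EXP1 and 7.93 ± 0.182 for CEL2 (SE).

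TBG4 (Solyc12g008840.2), a beta-galactosidase gene, averaged 63.5 ± 1.51 FPKM in jmj7 and 3.74 ± 0.272 in WT (SD, n = 3 each), a log2 fold change of 4.64 ± 0.0659 (SE), close to that of FUL1. HPL (Solyc07g049690.3), a hydroperoxide lyase gene of green-leaf volatiles, had 132, 127 and 126 FPKM in jmj7 replicates 1 to 3, against 95.3, 89.9 and 95.2 FPKM in WT replicates 1 to 3. HPL had the smallest fold change of the list, 1.02 ± 0.0378 (log2, SE), or 0.46 with the depth implied by FPKM. At the other end, PG2a (Solyc10g080210.2), a pectin-degrading polygalacturonase gene, had 1721285 reads over the jmj7 libraries and 11 over the WT libraries. The ethylene synthesis gene ACS2 (Solyc01g095080.3) averaged 367 ± 3.94 FPKM in jmj7 and 11.0 ± 1.24 in WT, and the ethylene receptor gene ETR3 (Solyc09g075440.3), also called NR, 497 ± 12.7 in jmj7 and 54.5 ± 0.696 in WT (SD, n = 3 each). In jmj7 the level of RIN thus lay above both, and in WT below both.

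Of 10 listed ripening regulators, all 10 have a row, and 6 were higher and 4 lower in jmj7, or 7 and 3 with recomputed size factors. NOR, CNR and DML2, all higher, are also in the RIN-linked list, so the lists are not separate. Over all genes tested, 37.2% were higher and 62.8% lower. With recomputed factors, 3135 of 8703 genes were called higher and 3606 lower, so not every gene kept its call. Those factors assume mostly unchanged genes, which this table does not hold, so the lost calls are no measure of real uncertainty. NOR (Solyc10g006880.3), a NAC-family factor of fruit ripening, averaged 399 ± 10.8 FPKM in jmj7 and 9.09 ± 0.366 in WT (SD, n = 3 each). NOR therefore stood near FUL1 and below RIN in jmj7, and between RIN and FUL1 in WT. AP2a (Solyc03g044300.3), an APETALA2 factor that restrains ethylene output during ripening, averaged 356 ± 14.9 FPKM in jmj7 and 73.7 ± 4.78 in WT (SD, n = 3 each), a log2 fold change of 2.83 ± 0.0406 (SE). ARF4 (Solyc11g069190.2), an auxin response factor, averaged 9.75 ± 0.180 FPKM in jmj7 and 59.6 ± 0.626 in WT (SD, n = 3 each), a log2 fold change of -2.06 ± 0.0438 (SE). With recomputed size factors the log2 fold change of ARF4 was -0.83, and with the depth implied by FPKM it was -2.61. NAC1 (Solyc04g009440.3) averaged 0.289 ± 0.106 FPKM in jmj7 and 4.23 ± 0.163 in WT (SD, n = 3 each). HB-1 (Solyc02g086930.3), a homeobox factor that acts on ethylene synthesis, was lower in jmj7 by the deposited factors (log2 fold change -1.06 ± 0.0414, SE). Its log2 fold change was 0.17 with recomputed size factors, the only 1 of 14 alternatives in which its direction changed. It was -0.7 with TMM factors and -1.61 with the depth implied by FPKM. TAGL1 at 135.4 FPKM in WT was close to CNR, an SBP-box ripening factor, at 133 ± 6.30 (SD, n = 3), while in jmj7 CNR stood at 394 ± 4.25 (SD, n = 3) and TAGL1 at 199.9.

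**Figure D3:**
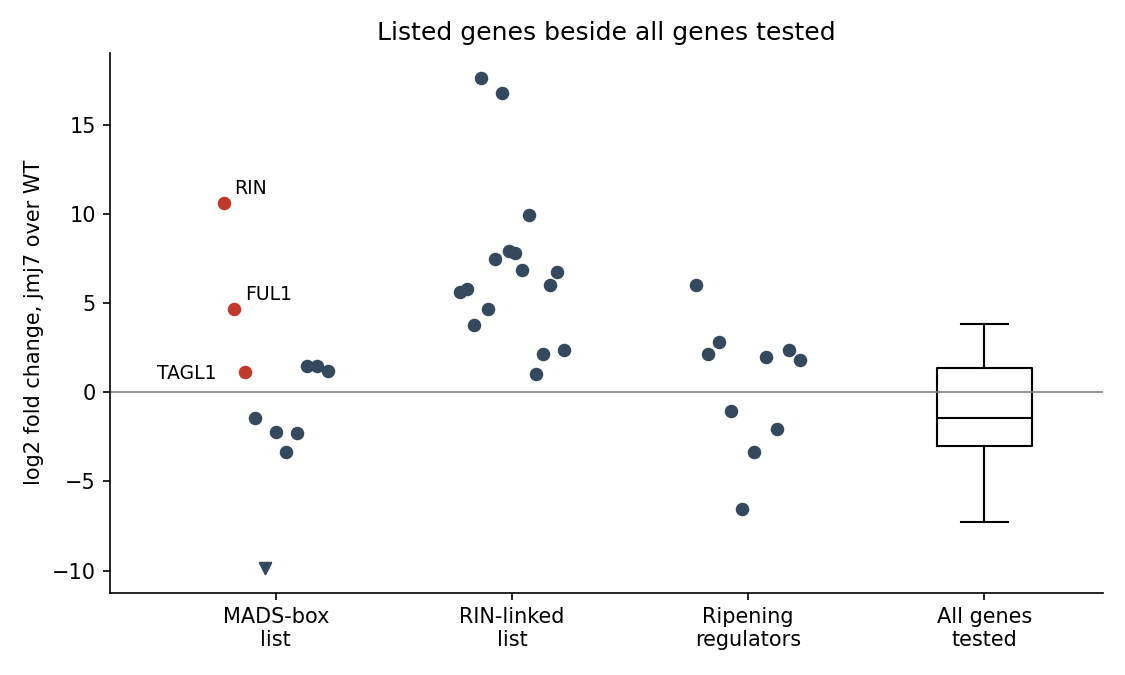
Log2 fold changes, jmj7 over WT, of the tested genes of 3 lists (points) beside a box of all genes tested (line, median; box, quartiles; whiskers, 5th to 95th percentile). RIN, FUL1 and TAGL1 are red and named; the triangle is a gene at 0 reads in jmj7, whose fitted value is no bound; all 16 RIN-linked genes lie above 0, while the MADS-box list holds 6 above and 5 below.

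Markers of other fruit layers and stages also differed between the groups, in both directions. Of 7 epidermis and cuticle markers, 3 have a row, and these 3 had 0 reads in every jmj7 library, among them the cutin genes CD1 and GPAT6. Their summed level was 0 FPKM in each jmj7 library and 212 to 233 FPKM in WT libraries. A count of 0 allows up to 3 reads over the group. The 4 epidermis and cuticle markers without a row were not analysed here, so the 3 do not stand for all those listed. GLK2, a marker of green fruit, averaged 0.394 ± 0.0696 FPKM in jmj7 and 54.8 ± 7.31 in WT, and PSY1, the phytoene synthase of ripe fruit, 5689.7 ± 185 in jmj7 and 72.4 ± 3.80 in WT (SD, n = 3 each). GLK2 is also one of the listed regulators and PSY1 one of the RIN-linked genes. The part of tissue makeup in the MADS-box differences was not tested, and ripening stage cannot be told apart from genotype, since each group was sampled at one age.

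The genes most like RIN and FUL1 were sought over the whole table by the Euclidean distance of log2(FPKM + 1) across the 6 libraries. The nearest to RIN was Solyc09g008170.2, at a distance of 0.823, with 487 ± 7.59 FPKM in jmj7 and 0.863 ± 0.457 in WT (SD, n = 3 each). The nearest to FUL1 was Solyc01g107830.3, at 0.631, with 399 ± 7.84 FPKM in jmj7 and 16.8 ± 1.06 in WT (SD, n = 3 each). The reference does not pair either identifier with a name. Neither RIN nor FUL1 was among the 3 genes nearest to the other, and the distance between them is not given here. In plain FPKM, the WT level of FUL1 was 42.7 times that of RIN on average over the libraries.

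**Figure D4:**
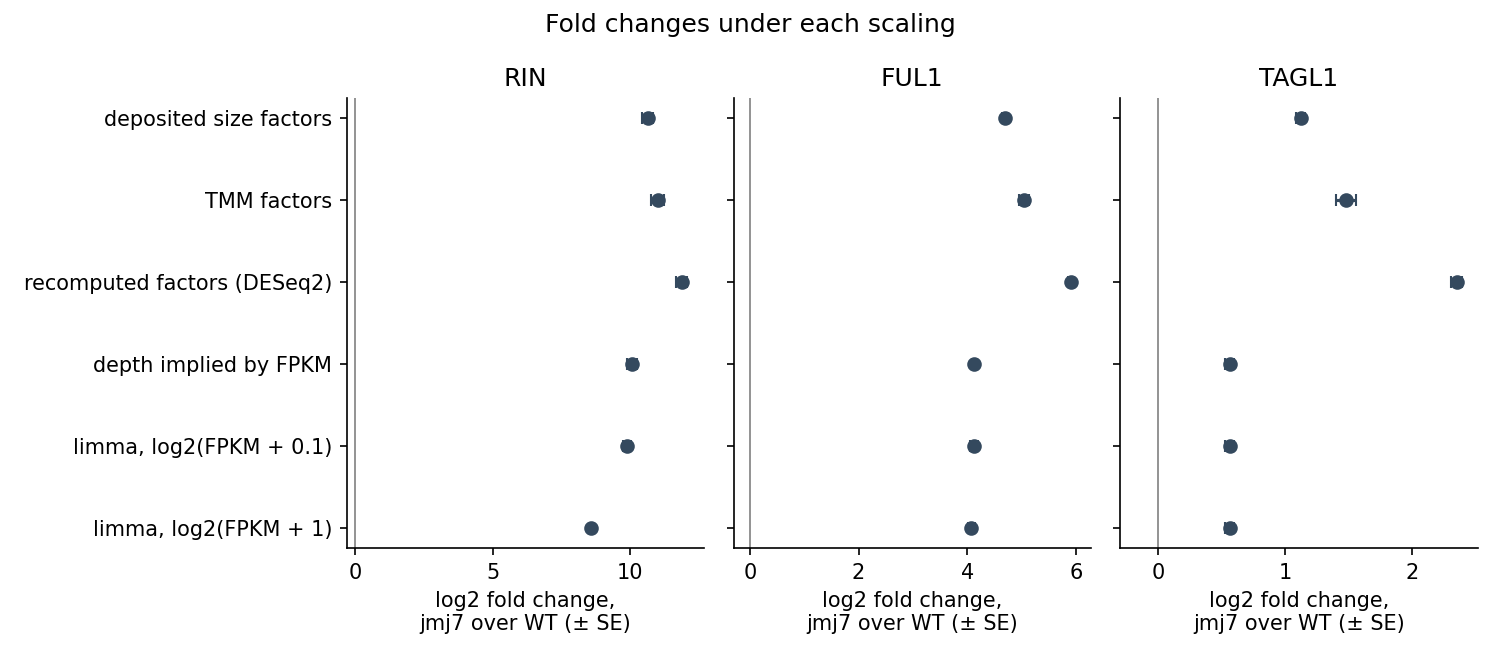
Log2 fold change of RIN, FUL1 and TAGL1, jmj7 over WT, with its SE, under the deposited size factors and 5 alternatives; each panel has its own axis. RIN stays between 8.59 and 11.87 and FUL1 between 4.07 and 5.91, while TAGL1 runs from 0.56 to 2.35.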

How the data were processed

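HISAT2 is the one tool named, per the submitters' processing notes; no version, build, counting tool or strand choice is given in the sources used here. Per library, the authors' deposited table gives read counts, per the file headers, and FPKM. A further deposited signal equals the count divided by 1 size factor per library, recovered here and called the normalized count. Log2 fold changes and p-values of the authors' comparison are also deposited; every gene has a p-value of at most 0.0499. The quasi-likelihood test of edgeR 4.0.16 (R 4.3.3; glmQLFit, glmQLFTest, prior count 0.125) was run on the counts of the whole table after filterByExpr at a minimum count of 10, with the deposited size factors and Benjamini-Hochberg adjustment. TMM and the size factors recomputed by DESeq2 1.42.0 assume mostly unchanged genes. Both were alternatives, as was limma 3.58.1 on log2(FPKM). SE are Wald errors, never below counting error. On simulated counts for 7622 genes with 200 changed, the fit called 189 of the changed and 5 of the unchanged genes. The simulation had a fixed dispersion, known size factors and few changed genes, unlike the deposited table. It checks that the fit runs properly and says nothing of scaling error or false calls here. Replicate pairs differed by more than sampling noise (chi-square per gene 1.60 to 3.71), so none was counted as the same library. Members, lists and tests were chosen with earlier results of these data known. The named genes are the members and list members with a row, and for RIN and FUL1 the gene nearest in FPKM; not every one is printed. Symbols were checked against the SLM_r2.1 gene table by chromosome and order (tolerance 0.5 Mb). Of 61 identifiers, 48 matched, 9 had no symbol there and 4 were contradicted and left out of the lists; all 5 member symbols matched.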

Additional observations from a re-analysis of the deposited data

How the results depend on the processing

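The 169 values computed under alternatives were those of the members, the ratios and the counts of genes called. Member and ratio values kept their direction and side of the threshold, and counts stayed within 1.5 times. Counts can hide changes of single genes: with recomputed size factors HB-1 changed direction and MBP20 lost its call. The table holds only genes already called, so this stability says little about robustness. Leaving out each replicate gave log2 fold changes of 10.52 to 10.88 for RIN, 4.61 to 4.73 for FUL1 and 1.11 to 1.14 for TAGL1, the alternatives for TAGL1 being chosen after seeing the data. Sizes moved with scaling and pseudocount: RIN was 3738-fold higher with recomputed size factors, 1077-fold with the depth implied by FPKM and 384-fold on the log2(FPKM + 1) scale, which understates it since its WT level is under 1 FPKM. FUL1 was 60.3-fold, 17.5-fold and 16.8-fold higher in the same order. Same-numbered replicates did not deviate together (correlations of -0.12, 0.0164 and -0.0573 over 2996 genes), and not every library correlated best with its own number. With the replicate number as a block, the log2 fold changes of RIN, FUL1 and TAGL1 were 10.63, 4.69 and 1.12, and 2837 and 4785 genes were called higher and lower, as without the block. Depth limits the RIN fold, whose WT side holds 57 reads.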
